A study of Homo sapiens with 9 samples.

Results

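The 49 genes described here encode the machinery of mitosis. They cover the kinase that starts division and its activators, other mitotic kinases, the spindle assembly checkpoint, the chromosomal passenger complex, centromere and kinetochore proteins, enzymes of anaphase, spindle motors, cytokinesis proteins and proteins that shape chromosomes. Genes were taken by name, and a probe set counted only where the platform annotation gave it to that gene alone. Where a gene had several, the probe set with the highest mean of log2(value + 16) over the 9 arrays stood for it. All 49 were found, among 19775 genes picked in the same way, and they have 97 such probe sets in all. All 49 also passed the filter on low signal, which left 14018 genes, and their representative signals lay above the array median on all 9 arrays.

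The cells were HEK293, an established line from human embryonic kidney, transiently transfected with surfactant protein C, a small hydrophobic protein that alveolar type II cells of the lung make as a proprotein. Affymetrix arrays were hybridised with total RNA from cells given the wild-type protein (WT, 3 arrays), the mutant without exon 4 (Ex4, 3 arrays) or the L188Q substitution (LQ, 3 arrays). The WT cells carried a surfactant protein C construct too, and cells without a construct or with an empty vector were not analysed here. The labels do not state the vector, the share of cells that took it up or the time of harvest. Whether the replicates came from separate cultures is not stated either, and p-values therefore cover only how these arrays spread, which may be technical. The question addressed here is whether genes of mitosis differed between cells with a misfolding-prone form of the protein and cells with the wild-type form.

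Entry into mitosis is driven by CDK1 bound to cyclins A and B and switched on by CDC25 phosphatases. Kinases of the Aurora, Polo and NEK families then build the spindle, the spindle checkpoint waits until kinetochores are attached, and the anaphase-promoting complex with CDC20 ends the wait. Many of these transcripts are made late in the cell cycle and run down after division, so their level in a growing culture follows how many cells are close to division. In bulk RNA a different share of such cells and a different amount of RNA per cell cannot be told apart.

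Promoters of such genes are known for the CCAAT box, which NF-Y binds, and for the cell cycle genes homology region, with the core TTTGAA, or at some genes the variant TTTAAA, which the MuvB complex binds. The 250 bases before the start are printed below from RefSeq (GRCh38.p14), because many, though not all, of the mitosis genes hold these elements. HMMR, MKI67 and KIF4A passed the test in LQ and PLK1 and CCNB1 did not. Capitals mark the TTTGAA core, its TTTAAA variant and the CCAAT box on either strand, and a run of more than 6 capitals holds neighbouring or overlapping matches.
HMMR, chr5:163460382-163460631, plus strand: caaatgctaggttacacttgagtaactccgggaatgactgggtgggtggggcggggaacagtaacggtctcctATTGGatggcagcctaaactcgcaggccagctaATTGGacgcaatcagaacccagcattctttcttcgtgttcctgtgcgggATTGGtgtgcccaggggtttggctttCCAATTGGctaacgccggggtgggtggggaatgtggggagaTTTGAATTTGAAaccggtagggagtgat
MKI67, chr10:128126424-128126673, minus strand: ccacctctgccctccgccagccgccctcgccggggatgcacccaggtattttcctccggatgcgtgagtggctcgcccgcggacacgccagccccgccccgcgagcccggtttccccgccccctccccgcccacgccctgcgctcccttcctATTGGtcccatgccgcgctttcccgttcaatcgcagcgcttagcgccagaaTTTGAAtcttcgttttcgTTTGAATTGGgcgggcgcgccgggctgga
KIF4A, chrX:70289854-70290103, plus strand: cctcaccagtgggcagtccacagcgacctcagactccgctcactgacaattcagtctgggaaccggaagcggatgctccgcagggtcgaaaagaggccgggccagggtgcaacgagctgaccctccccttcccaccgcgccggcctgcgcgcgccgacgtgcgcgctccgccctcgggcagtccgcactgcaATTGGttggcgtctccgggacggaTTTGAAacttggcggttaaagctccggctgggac
PLK1, chr16:23678639-23678888, plus strand: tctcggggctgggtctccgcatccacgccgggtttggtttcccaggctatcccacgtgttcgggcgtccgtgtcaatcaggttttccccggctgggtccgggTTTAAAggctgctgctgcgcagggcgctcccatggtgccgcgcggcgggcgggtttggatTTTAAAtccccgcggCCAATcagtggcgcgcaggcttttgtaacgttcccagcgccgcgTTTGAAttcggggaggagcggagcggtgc
CCNB1, chr5:69166900-69167149, plus strand: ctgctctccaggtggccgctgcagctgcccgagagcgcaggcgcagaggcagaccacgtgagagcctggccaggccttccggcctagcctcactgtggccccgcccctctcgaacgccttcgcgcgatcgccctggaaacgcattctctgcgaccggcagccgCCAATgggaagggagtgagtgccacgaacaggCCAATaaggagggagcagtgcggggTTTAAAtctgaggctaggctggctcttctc

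The HMMR and MKI67 windows each held TTTGAA 2 times, and those of KIF4A and PLK1 held it 1 time, while the CCNB1 window held TTTAAA and no TTTGAA. Of the 49 genes, 42 had at least 1 window in the RefSeq table, with 57 windows in all. TTTGAA, counted on both strands, lay in 27 of the 57 windows (47.4%), against 13.3% of all 35116 windows of the same length. CCAAT lay in 39 (68.4%) against 32.0%, TTTAAA in 21.1% against 11.3%, and TTTGAA together with CCAAT in 38.6% against 4.69%. Among genes with a window, TTTGAA was found in 4 of the 6 that passed in LQ and in 20 of the 36 others (66.7% and 55.6%). NEK2 and NDC80 passed in LQ without TTTGAA in their window and are not among the genes printed. KIF2C, NDC80, NUF2 and SMC2 held none of these letters in any window, while CDC25B, CDC25C, PLK4 and SMC4 held none in some of their windows. A match is a stretch of letters and was not tested as a site.

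Some arrays stood apart. WT replicate 1 had a mean correlation of 0.892 with the other WT arrays, 0.906 with Ex4 and 0.907 with LQ, over tested probe sets. Ex4 replicate 1 had 0.906 with its own group, 0.911 with WT and 0.927 with LQ. Array medians were 506.4 to 524.4 in WT, 316.1 to 434.3 in Ex4 and 303.9 to 371.8 in LQ, while trimmed means lay between 1493.4 and 1495.0. The ratio of 3' to 5' signal of GAPDH was 1.21 to 1.43 in WT, 0.956 to 1.22 in Ex4 and 1.06 to 1.09 in LQ, and that of ACTB was 1.05 to 1.27, 1.15 to 1.48 and 1.15 to 1.23. All 8 HEK293 markers lay above the array median on every array, and their mean log2 level was 13.00 to 13.15 in WT, 12.60 to 12.71 in Ex4 and 12.53 to 12.75 in LQ. Of the 8, 1 had a positive change in Ex4 and 1 in LQ against WT, beside 43.6% of all genes in each. PAX2 had 2026.4, 1533.2 and 2800.6 in WT and 530.1, 535.5 and 407.8 in LQ. It alone of the 8 passed in LQ (limma), and it was lower (4.17% of all genes). Of other cell types, 2 of 6 alveolar type II, 1 of 5 fibroblast and 1 of 6 blood cell markers lay above the median on every array. None was at 0. The mean level of the alveolar list was 8.61 to 9.52 in WT, 8.17 to 9.14 in Ex4 and 8.16 to 8.89 in LQ. That of the fibroblast list was 8.75 to 9.27, 8.05 to 8.59 and 7.77 to 8.78, and that of the blood list 8.12 to 8.63, 7.44 to 7.73 and 6.99 to 7.47. The part of RNA quality, array scaling and cell make-up in the values of the mitosis genes was not tested.

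The mean log2 level of the 49 mitosis genes was 12.86, 12.64 and 12.57 on WT replicates 1, 2 and 3. On the Ex4 arrays it was 12.98, 13.02 and 12.98, and on the LQ arrays 13.07, 13.05 and 12.91. Each mutant array was thus above each WT array as deposited, with WT replicate 1 the nearest. Single genes varied far more than this mean. The highest of the 9 arrays was 7.94-fold above the lowest for CENPF, 7.30-fold for CENPE and 4.66-fold for CDK1, but only 1.21-fold for CCNB2 and 1.34-fold for PRC1, on values with 16 added. The map of all members by array shows these wide differences in a few rows, mostly between WT replicates 2 and 3 and the other 7 arrays.

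**Figure D1:**
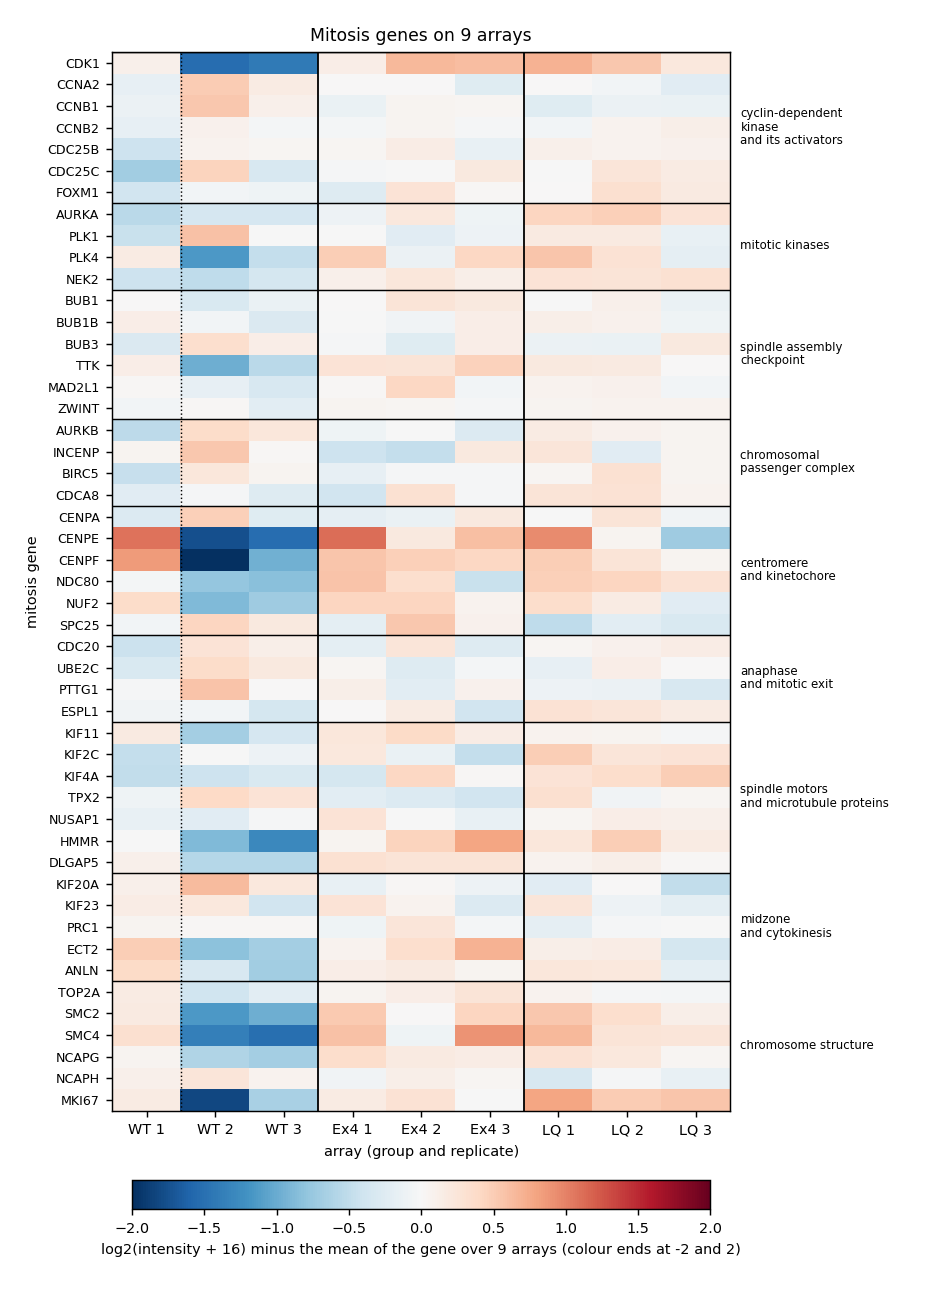
Each row is a mitosis gene and each column an array, and colour gives log2(intensity + 16) minus the mean of the gene over the 9 arrays. Solid vertical lines part the groups and a dotted line sets WT replicate 1 apart. CDK1 and SMC4 are dark blue on WT replicates 2 and 3 alone, while rows such as CCNB2, ZWINT and PRC1 are pale throughout.

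In LQ against WT, 7 of the 49 mitosis genes rose by 1.63- to 2.69-fold and none passed lower. They were AURKA, NEK2, CDK1, KIF4A, MKI67, HMMR and NDC80, and no role list held more than 2 of them. The 7 are 14.3% of the members, while among all 14018 genes 4.1% passed higher and 4.17% lower, 8.28% together (limma, adjusted p under 0.05). At a filter of percentile 60, which keeps brighter genes, the share passing higher was 5.78% and the members' count was again 7. An unadjusted p under 0.05 was reached by 17 members, against 30.6% of all genes. The log2 change was positive for 37 members (75.5%) and for 43.6% of all genes, with a median of 0.22 for members and -0.09 for all genes. Among the brighter genes kept at percentile 60, 51.3% were positive and the median was 0.01. All LQ arrays lay above all WT arrays for 13 members (15.7% of all genes) and below them for 6 (23.2% of all genes).

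Among the mitotic kinases, AURKA (Aurora A), which matures centrosomes and builds the spindle, had intensities of 9123, 10504.5 and 10430.9 on the WT arrays, 12312.7, 15394.6 and 12535.6 on the Ex4 arrays and 17918.1, 18388.1 and 15953.1 on the LQ arrays. The 3 groups did not overlap, with Ex4 between WT and LQ. AURKA was 1.74-fold higher in LQ than in WT (log2 change 0.80 ± 0.15, SE; adjusted p = 0.023). NEK2, a kinase that parts the centrosomes, had 4437.4, 4144.8 and 4635.8 in WT, 6363.9, 6886.4 and 6380.5 in Ex4, and 7161.8, 7110.5 and 7277.1 in LQ. Again no group overlapped another, and here the arrays within a group lay close together. NEK2 was 1.63-fold higher in LQ (log2 change 0.70 ± 0.14, adjusted p = 0.026). PLK4, which starts centriole duplication, and PLK1, the Polo kinase of mitotic entry and exit, did not pass. PLK4 had a log2 change of 0.71 ± 0.32 in LQ (adjusted p = 0.15). PLK1 had 5941.5, 12260 and 8052.8 in WT and 9175, 9251.9 and 7343.2 in LQ, with all LQ arrays inside the WT range.

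CDK1, the kinase that drives entry into mitosis, had 13054.5, 4247.1 and 4563.3 on WT replicates 1, 2 and 3. On the Ex4 arrays it had 13338.1, 19021.5 and 18614.5, and on the LQ arrays 19843.7, 17654.7 and 14100. All 6 mutant arrays lay above all WT arrays, but WT replicate 1 was close to the lowest mutant array and far above the other two WT arrays. CDK1 was 2.69-fold higher in LQ (log2 change 1.43 ± 0.35, adjusted p = 0.036). The partners and activators of CDK1 did not pass. CCNB1 (cyclin B1) had 12325.5, 19450.4 and 14328.9 in WT and 11312, 12233.3 and 12153.3 in LQ, with LQ wholly below WT (log2 change -0.34 ± 0.17, adjusted p = 0.20). CCNA2 (cyclin A2) had a log2 change of -0.26 and CCNB2 (cyclin B2) 0.08. CDC25B and CDC25C, the phosphatases that activate the kinase, had 0.19 and 0.32. FOXM1, a transcription factor of late cell cycle genes, had 0.34 ± 0.19 (adjusted p = 0.25), with LQ wholly above WT.

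**Figure D2:**
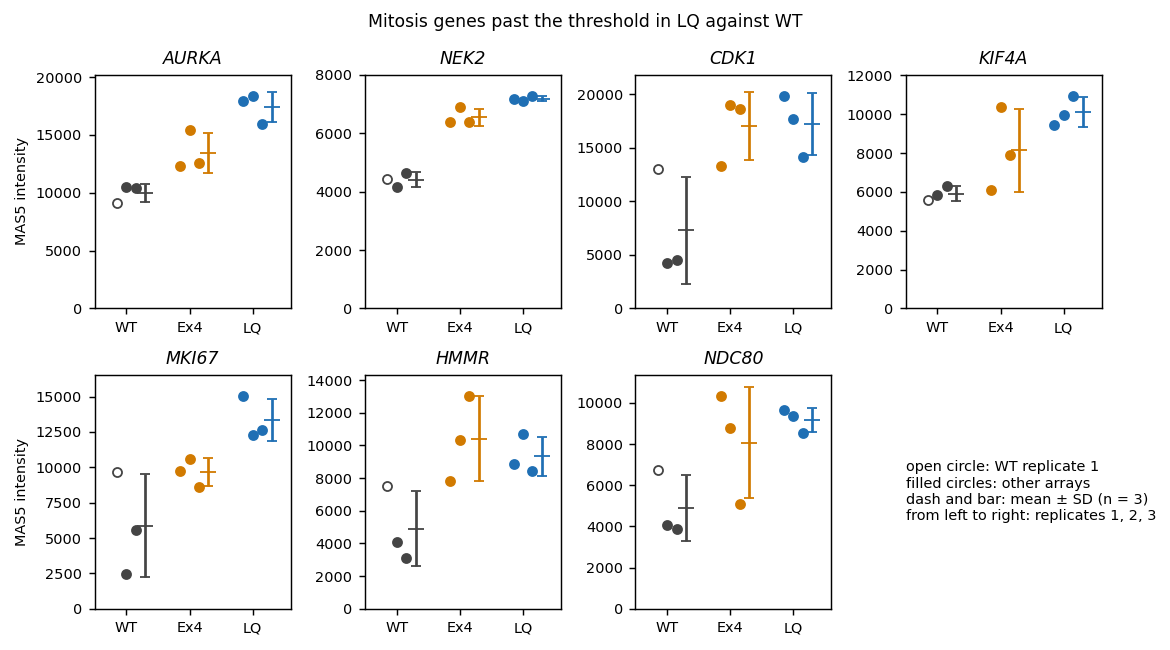
Each panel shows a mitosis gene that passed in LQ against WT, with MAS5 intensity on an axis from 0 and points for each array, the open circle being WT replicate 1; the dash and bar give mean and SD (n = 3). LQ lies above WT in all panels, and WT replicate 1 lies apart from the other WT arrays for CDK1, HMMR, MKI67 and NDC80.

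At the centromere and kinetochore, NDC80, which holds microtubules at the outer kinetochore, had 6743, 4066.6 and 3879 in WT, 10329.1, 8792.1 and 5082.9 in Ex4 and 9666.8, 9348.4 and 8514.6 in LQ. LQ lay wholly above WT, whereas Ex4 replicate 3 lay within the WT range. NDC80 was 1.93-fold higher in LQ (log2 change 0.95 ± 0.27, adjusted p = 0.049). Its partners in the same complex did not pass, with 0.51 ± 0.29 for NUF2 (adjusted p = 0.26, and 0.90 with adjusted p = 0.017 without WT replicate 1) and -0.53 ± 0.22 for SPC25 (adjusted p = 0.13). SPC25 had 2720.1, 3798.3 and 3228.2 in WT and 1976.7, 2434.6 and 2276.3 in LQ, so that no LQ array reached the WT range. CENPE, a kinetochore motor, had 5138.3 on WT replicate 1 against 701.8 and 832.7 on the other WT arrays. In LQ it had 4658.8, 2501.3 and 1471.1, which lies between these WT values. CENPF, a large kinetochore protein, had 13874.6, 1734.1 and 3961.4 in WT and 10868.2, 9268.3 and 8010.4 in LQ (log2 change 1.02 ± 0.52, adjusted p = 0.20). CENPA, the histone variant that marks the centromere, had a log2 change of 0.07.

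Among spindle motors and microtubule proteins, KIF4A, a chromosome-bound motor of the central spindle, had 5561.3, 5868.1 and 6321.9 in WT, 6123.8, 10364.8 and 7926.6 in Ex4 and 9439.8, 9966.2 and 10953 in LQ. LQ and WT did not overlap, while Ex4 replicate 1 lay inside the WT range. KIF4A was 1.71-fold higher in LQ (log2 change 0.77 ± 0.19, adjusted p = 0.036). HMMR, a hyaluronan receptor that also binds spindle microtubules, had 7516.7, 4110 and 3094.7 in WT, 7821, 10353.3 and 13020.7 in Ex4 and 8885.2, 10685.7 and 8444.8 in LQ. The mutant arrays were all above WT, and the highest WT array, replicate 1, came within a small distance of Ex4 replicate 1. HMMR was 2.03-fold higher in LQ (log2 change 1.02 ± 0.29, adjusted p = 0.049). KIF2C, a motor that takes microtubules apart at centromeres, had 0.53 ± 0.20 (adjusted p = 0.10), with no LQ array as low as WT. KIF11, the motor that pushes the spindle poles apart, had 0.31, DLGAP5 0.42 and NUSAP1 0.22, the last pair being microtubule-binding spindle proteins. TPX2, the spindle activator of AURKA, had -0.10.

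In the chromosome structure list, MKI67, which encodes the proliferation marker Ki-67 that coats mitotic chromosomes, had 9656.5, 2453.3 and 5547.8 in WT, 9755.3, 10567.6 and 8599.7 in Ex4 and 15033.6, 12316.1 and 12659.3 in LQ. The LQ arrays were above all others, and WT spread widely. MKI67 was 2.61-fold higher in LQ (log2 change 1.38 ± 0.36, adjusted p = 0.042). SMC2 and SMC4, the paired ATPases of condensin, which compacts chromosomes, missed the threshold at 0.98 ± 0.30 and 1.23 ± 0.40 (adjusted p = 0.059 and 0.071). SMC4 had 22633.4, 6985.1 and 6368.4 in WT and 28306.6, 21623.9 and 21345.9 in LQ. WT replicate 1 thus lay within the LQ range, and the other WT arrays far below it. Of the other condensin subunits NCAPG had 0.59 ± 0.20 (adjusted p = 0.082) and NCAPH -0.30 ± 0.18 (adjusted p = 0.28). TOP2A, the topoisomerase that untangles sister chromatids, had 0.15.

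No member of the checkpoint, passenger complex, anaphase or cytokinesis lists passed in LQ. In the checkpoint list, TTK, the kinase at its head, had 0.59 ± 0.23 (adjusted p = 0.12), and the others had -0.08 to 0.19. These are BUB1, BUB1B, BUB3 and MAD2L1, parts of the signal that restrains anaphase, and ZWINT, which links kinetochores to the checkpoint. The passenger complex corrects wrong attachments and consists of the kinase AURKB with INCENP, BIRC5 (survivin) and CDCA8 (borealin), and their log2 changes ran from -0.18 to 0.37. In the anaphase list, CDC20 and UBE2C, an activator and a ubiquitin-conjugating enzyme of the anaphase-promoting complex, had 0.11 and -0.10. PTTG1 (securin), which holds back the cohesin-cutting protease separase, had -0.37, while ESPL1, separase itself, had 0.39. The arrays of LQ lay above all WT arrays for ESPL1 and below them for PTTG1. In the cytokinesis list, KIF20A, a midzone motor, had 6155.2, 8882.9 and 6627.3 in WT, 5154.1, 5821.3 and 5371.3 in Ex4 and 4889.1, 5789.3 and 4074.6 in LQ. All 6 mutant arrays were below all WT arrays, and the log2 change of -0.55 ± 0.19 did not pass (adjusted p = 0.081). KIF23, another midzone motor, had -0.01, PRC1, a microtubule bundler, -0.11, ECT2, an activator of the contractile ring, 0.30 and ANLN (anillin), a scaffold of the ring, 0.29. Without WT replicate 1, TTK at 0.89, ECT2 at 0.71 and ANLN at 0.58 passed higher in LQ (limma adjusted p = 0.0063, 0.042 and 0.039). KIF20A at -0.65 then passed lower (limma adjusted p = 0.036).

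By role, the median log2 change in LQ was 0.78 for the 6 chromosome structure genes, 0.71 for the 4 kinases and 0.67 for the 6 centromere and kinetochore genes. It was 0.42 for the 7 spindle genes and 0.19 for the 7 genes listed as CDK1 and its activators, a list that includes the transcription factor FOXM1. For the 6 checkpoint genes it was 0.14 and for the 4 passenger complex genes 0.13. It was 0.00 for the 4 anaphase genes and -0.01 for the 5 cytokinesis genes. The lists with medians over 0.5 were those of chromosome structure, kinases and kinetochore, and differences between lists were not tested. Without WT replicate 1 the medians of the kinetochore and chromosome structure lists were 1.05 and 1.11, and that of the checkpoint list was 0.21. The median was then 0.03 for CDK1 and its activators, turned to -0.11 for the passenger complex and -0.20 for the anaphase list, and became 0.07 for cytokinesis. With each array centred on its median every role list had a positive median.

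In Ex4 against WT, 0 of the 49 mitosis genes passed, as did 0.0% of all genes (limma). An unadjusted p under 0.05 was reached by 18 members, against 27.2% of all genes. The log2 change was positive for 34 members (69.4%) and for 43.6% of all genes, with a median of 0.17 for members and -0.08 for all genes. Among the brighter genes kept at percentile 60, 50.7% were positive and the median was 0.01. All Ex4 arrays lay above all WT arrays for CDK1, AURKA, NEK2, TTK, HMMR, DLGAP5 and NCAPG, 7 members (9.07% of all genes). They lay below for TPX2 and KIF20A, 2 members (14.9% of all genes). The members with the smallest p were CDK1 at 1.40 ± 0.35, HMMR at 1.15 ± 0.29 and NEK2 at 0.57 ± 0.14 (adjusted p = 0.068 each). They were followed by TTK at 0.79 ± 0.23, DLGAP5 at 0.62 ± 0.18 and SMC2 at 0.97 ± 0.30 (adjusted p = 0.079, 0.080 and 0.086). TTK had 8705.2, 4010.1 and 5415.1 in WT and 9594.2, 9424.2 and 10921.4 in Ex4, with WT replicate 1 nearest to the mutant arrays. DLGAP5 had 9600.9, 6043.1 and 5982.8 in WT and 11039.4, 10708.7 and 10737.1 in Ex4, in the same order. By role, the median was 0.77 for chromosome structure, 0.71 for centromere and kinetochore, 0.49 for kinases and 0.43 for spindle genes. It was 0.19 for the checkpoint, 0.11 for CDK1 and its activators, 0.03 for cytokinesis, -0.08 for the passenger complex and -0.12 for the anaphase list. Without WT replicate 1 the medians were -0.03 for CDK1 and its activators, 0.11 for cytokinesis, -0.32 for the passenger complex and -0.28 for the anaphase list. Those of chromosome structure and kinetochore were then 1.12 and 1.03, and with median centring all role medians were positive.

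Ex4 and LQ were each set against the same WT arrays, so their changes are given side by side only. All 6 mutant arrays lay above all WT arrays for CDK1, AURKA, NEK2 and HMMR, 4 members (6.79% of all genes), and below them for KIF20A, 1 member (11.6% of all genes). Set directly against Ex4, LQ had 0 mitosis genes past the threshold (0.0% of all genes), 4 with an unadjusted p under 0.05 (4.19% of all genes) and 26 with a positive change (48.5% of all genes). The median log2 change of members was 0.02. LQ arrays lay above all Ex4 arrays for AURKA, NEK2, AURKB, BIRC5, KIF2C, TPX2 and MKI67, 7 members (5.91% of all genes). They lay below for TTK, SPC25, KIF11 and DLGAP5, 4 members (6.47% of all genes). The smallest p belonged to AURKA at 0.38 ± 0.15, KIF2C at 0.47 ± 0.20, TPX2 at 0.38 ± 0.17, SPC25 at -0.48 ± 0.22, KIF4A at 0.34 ± 0.19 and ESPL1 at 0.30 ± 0.17 (limma adjusted p = 0.998 each), which does not show that the mutants were alike.

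WT replicate 1 differed from the other WT arrays for many members. It was the highest WT array for 21 mitosis genes (33.3% of all genes), the lowest for 20 (43.1% of all genes) and between the others for 8 (23.5% of all genes). It was at least 2-fold above the mean of WT replicates 2 and 3 for 9 members (5.91% of all genes). These were CDK1, CENPE, CENPF, NUF2, HMMR, ECT2, SMC2, SMC4 and MKI67, with 6.60-fold for CENPE, 3.39-fold for SMC4 and 2.96-fold for CDK1. It was at least 2-fold below for 0 members (5.03% of all genes). Its ratio to the other WT arrays was 0.563 for AURKB, 0.589 for CDC25C and 0.599 for PLK1. CENPE, CENPF, NUF2, SMC2, SMC4 and CDK1 were thus high on this array while AURKB, CDC25C and PLK1 were low. All 6 mutant arrays lay above WT replicates 2 and 3 for 21 members (16.7% of all genes). They lay below them for CCNA2, CCNB1, AURKB, UBE2C and KIF20A, 5 members (23.7% of all genes).

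With WT replicate 1 left out, 18 mitosis genes passed higher and 1 lower in Ex4, where 9.85% of all genes passed higher and 6.9% lower. In LQ, 19 passed higher and 2 lower, with 10.7% and 8.94% of all genes. CDK1 then had 1.93 in Ex4 and 1.95 in LQ (adjusted p = 0.00061 and 0.00064), and CENPF 2.03 and 1.82 (adjusted p = 0.0017 and 0.0027). SMC4 had 1.90 and 1.82 (adjusted p = 0.0013 and 0.0016), and CENPE 2.27 and 1.73 (adjusted p = 0.0059 and 0.017). The genes that passed lower were TPX2 in Ex4 at -0.62 (adjusted p = 0.020) and, in LQ, KIF20A at -0.65 (adjusted p = 0.036) and CCNB1 at -0.49 (adjusted p = 0.0499). All 7 genes called in LQ with 9 arrays were among the 19. AURKA, NEK2 and KIF4A, for which WT replicate 1 lay near the other WT arrays, had 0.73, 0.71 and 0.73 without it. The median over members moved little, to 0.13 in Ex4 and 0.23 in LQ. The plot of changes with and without this array orders genes by how far it lay above the other WT arrays. That upper rows move up and lower rows move down is fixed by this order.

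**Figure D3:**
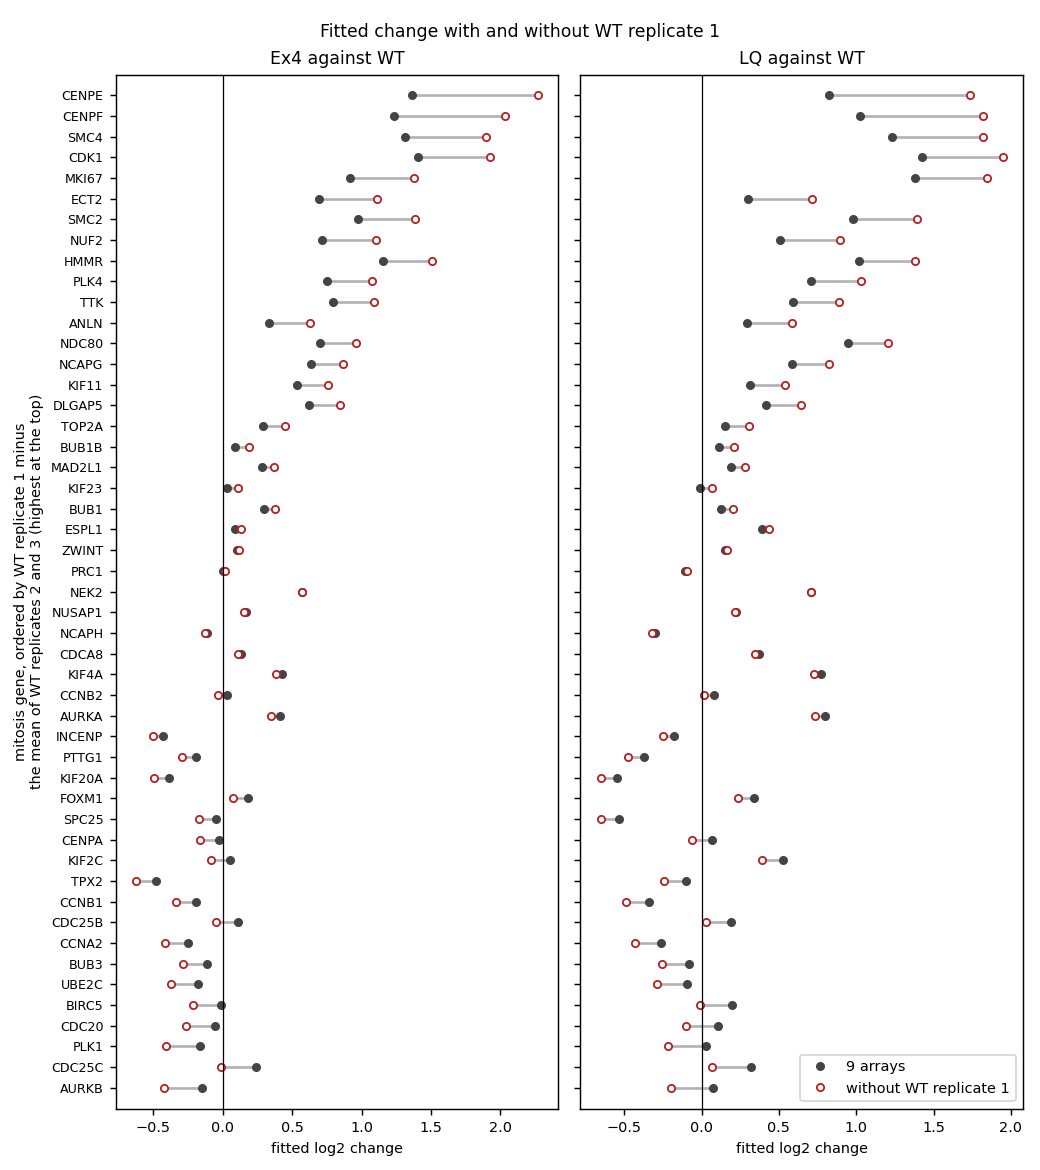
Fitted log2 change of each mitosis gene in Ex4 (left) and LQ (right) against WT, with all 9 arrays (filled) and without WT replicate 1 (open), ordered by how far WT replicate 1 lay above the other WT arrays. CENPE in Ex4 moves from 1.37 to 2.27, whereas NEK2 in LQ moves from 0.70 to 0.71.

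Counts also moved with other single arrays. Without Ex4 replicate 1, 4 members passed higher in Ex4, namely HMMR, CDK1, NEK2 and KIF4A (5.92% of all genes), and 8 in LQ (6.7% of all genes). Without WT replicate 2, WT replicate 3 or any of the LQ arrays, 0 members passed in LQ, and at most 0.0429% of all genes passed higher in these fits. Over the 9 fits that leave out an array, AURKA, NEK2, CDK1 and KIF4A passed in 4, NDC80 in 3, and MKI67 and HMMR in 2. Fits without a WT or LQ array have fewer arrays in the comparison itself. That holds for the fit without WT replicate 1 too, where 19 members passed higher and 2 lower in LQ. Why the counts moved was not tested.

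**Figure D4:**
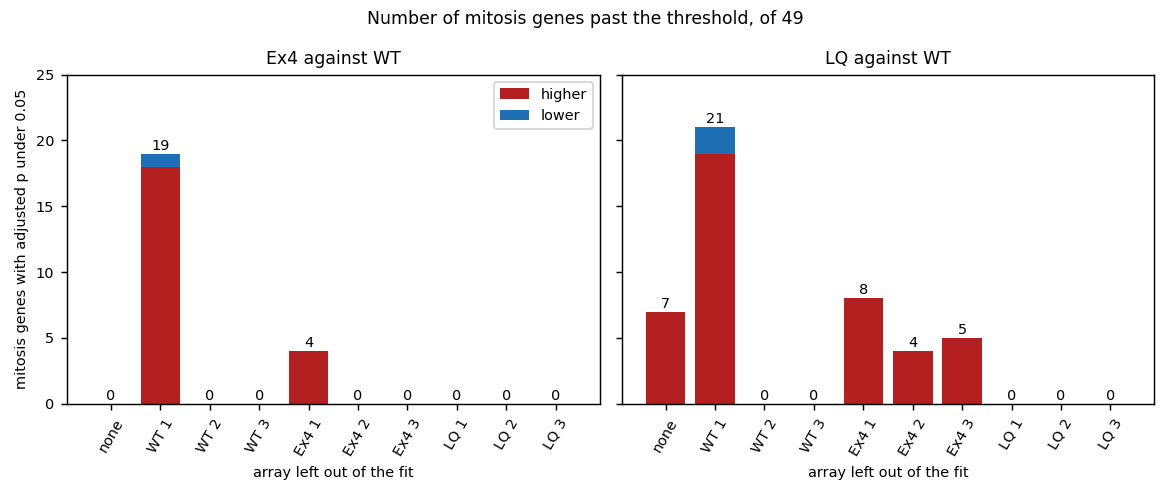
Number of the 49 mitosis genes past the threshold, higher in red and lower in blue, with no array left out and with each array left out in turn. In Ex4 (left) the count is 0 with all arrays and 19 without WT replicate 1, and in LQ (right) it is 7 with all arrays, 21 without WT replicate 1 and 0 without any LQ array.

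Several genes have more than 1 probe set, which need not measure the same transcripts. Besides the representative ones, 40 probe sets of 26 mitosis genes were tested. Their log2 change had the sign of the representative in 26 of 40 for LQ and in 24 of 40 for Ex4. The other AURKA probe set had 1.35 in LQ and passed over all 32768 probe sets (adjusted p = 0.0036), and that of NEK2 had 0.52. The other probe sets of CDK1 had 0.55, 0.12 and -0.95, the last being below the array median on all 9 arrays. Those of MKI67 had 1.20, 0.36 and 0.08, and that of HMMR 0.73. KIF4A and NDC80 have a single tested probe set. Of the 7 genes called, CDK1 alone had a probe set of the opposite sign in LQ, and that probe set was dim. The CDK1 probe sets at 0.55 and 0.12, bright on all 9 arrays, did not pass (limma adjusted p = 0.15 and 0.72). With the probe sets of a gene averaged, AURKA, KIF4A, NEK2 and NDC80 passed in LQ, while CDK1, MKI67 and HMMR did not. CDK1 in Ex4 then had 0.48 in place of 1.40. Among members that did not pass, another probe set of TOP2A had 0.87 (adjusted p = 0.031) against 0.15 on the representative. One of SMC4 had 1.38 (adjusted p = 0.045) against 1.23. Signs also differed in LQ within CCNA2, BUB1 and PLK4, at -0.26 and 0.60, 0.13 and -0.48, and 0.71 and -0.73. The same held for AURKB, BIRC5, BUB3, CCNB2, CDC25C, MAD2L1 and TOP2A, in part on dim probe sets. BUB3 had -0.08 on the representative, against 0.29, 0.27 and 0.14 on others that lay above the array median on all 9 arrays.

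**Figure D5:**
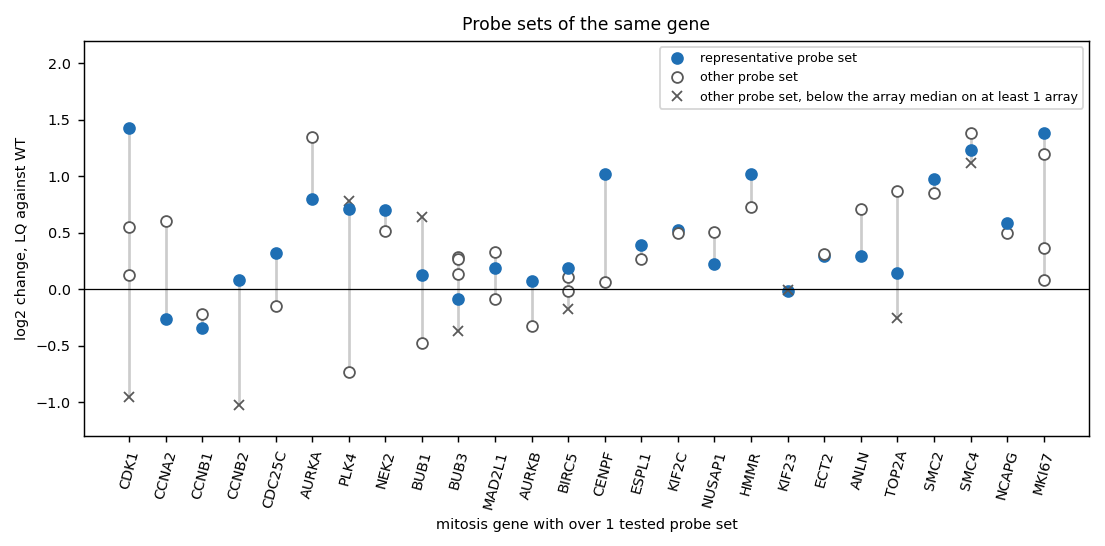
Log2 change in LQ against WT for mitosis genes with over 1 tested probe set, with filled points for the representative, open points for the others and crosses for others below the array median on at least 1 array. The AURKA points lie at 0.80 and 1.35, and those of CDK1 spread from -0.95 to 1.43.

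The direction of small changes depended on how arrays were scaled. As deposited the median log2 change of all genes was -0.08 in Ex4 and -0.09 in LQ. Quantile normalization moved it to -0.01 and 0.00, and centring each array on its median moved it to 0.41 and 0.49. With quantile normalization 27 members in Ex4 and 33 in LQ were positive, and AURKA alone passed in LQ at 0.64 (adjusted p = 0.036, with 1.75% of all genes higher). NEK2 then had 0.57 (adjusted p = 0.051). With median centring all 49 were positive in both mutants, so the negative values of CCNB1, SPC25, PTTG1 and KIF20A turned positive, and 24 members passed higher in Ex4 and 31 in LQ, beside 21.1% and 30.5% of all genes. The median of members exceeded that of all genes by 0.25 in Ex4 and 0.32 in LQ as deposited and with centring, and by 0.05 and 0.12 with quantile normalization. Against the brighter genes kept at percentile 60, as deposited, the excess was 0.16 in Ex4 and 0.21 in LQ. The 7 genes called in LQ were positive under all 3 scalings. Brighter genes had higher changes as deposited. The median of all genes in LQ was -0.24 with no filter and 0.01 with the filter at percentile 60. The mitosis genes are all bright, and the part of brightness in their changes was not tested.

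Other genes of cell division were read from lists of genes outside the 49. Of 99 further mitosis genes tested, 65 were positive in LQ (median 0.20), with 4 passing higher and 2 lower, beside 43.6% of all genes positive, 4.1% higher and 4.17% lower. In Ex4 66 were positive (median 0.20) and 0 passed. Without WT replicate 1, 31 of the 99 passed higher and 4 lower in LQ and 30 higher and 2 lower in Ex4, beside the all-gene shares given above for those fits. CDC25A, a phosphatase that activates cyclin-dependent kinases, rose in LQ by 1.52 ± 0.25 (adjusted p = 0.019), and KNSTRN, a spindle and kinetochore protein, fell by 0.98 ± 0.22 (adjusted p = 0.030), a call lost with median centring at -0.40 (adjusted p = 0.20). Of 49 DNA replication genes 32 were positive in LQ and 6 passed, all higher, beside 4.1% of all genes. Without WT replicate 1, 8 passed higher, beside 10.7% of all genes. They include MCM3, a subunit of the replicative helicase, at 0.82 ± 0.13, and CDC6, which loads it, at 0.97 ± 0.17 (adjusted p = 0.019 each). Of 29 regulators of mitotic gene transcription 20 were positive and 3 passed, all higher, beside the same 4.1%, and 6 passed higher without WT replicate 1, beside 10.7%. E2F8, a repressor of the E2F family, had 1.01 ± 0.22 (adjusted p = 0.030), and MYBL2 (B-Myb), which binds the MuvB complex, had 0.66 ± 0.15 (adjusted p = 0.032). In Ex4, 36 of the replication genes and 18 of the regulators were positive, beside 43.6% of all genes, and 0 of either passed. Without WT replicate 1 each list had 4 higher (9.85% of all genes) and the replication list 2 lower (6.9% of all genes). In Ex4 with all 9 arrays the smallest p belonged to CKAP2 at 1.15 and WAPL at 0.85 among mitosis genes (limma adjusted p = 0.065 each). In replication it belonged to GINS4 at -1.33 and RFC1 at 0.67 (0.076 and 0.077). Among regulators it belonged to LIN9 at 0.81 and NFYB at 0.73 (0.077 and 0.095). The mean log2 level of the replication list was 12.84 to 12.95 in WT, 12.94 to 13.05 in Ex4 and 13.12 to 13.17 in LQ, and on WT replicate 1 it was the lowest of the 9 arrays. For the 49 mitosis genes that array was instead the highest of WT.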

How the data were processed

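Total RNA of HEK293 cells was measured on 9 Affymetrix arrays. The authors deposited linear intensity values, 1 for each probe set on each array. The tool was MAS5, per the submitters' processing notes, in a version not given in the sources used. MAS5 scales each array to a common mean, and this scaling was kept. Of 54675 probe sets 62 are controls, 41091 carried 1 gene symbol, 1801 several and 11721 none. Only those with 1 were named, with symbols updated through a RefSeq table. No coordinates of probe sets are printed.

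The intensities were turned into log2(value + 16), the scale of every log2 and fold change. Probe sets with a mean under percentile 40 were left out (32768 tested), and the probe set with the highest mean stood for a gene (14018 genes). A single model in limma 3.58.1 (R 4.3.3), with a variance trend and no replicate term, was fitted across all genes on the 9 arrays. Two-sided tests were adjusted by Benjamini-Hochberg over genes, with a threshold of 0.05, and p-values of single probe sets were adjusted over probe sets. The model was tested on simulated data.

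The members and lists were chosen with earlier results of these data known. Statistics are named for members past the threshold (up to 12), or the 6 with the smallest p where fewer than 6 pass, and for the 2 with the smallest p in each other list. Values of other members were picked for print after they were seen. Alternatives were pseudocounts of 1 and 64, quantile normalization, median centring, no filter or percentile 60, no variance trend, array weights, averaging the probe sets of a gene, only the arrays compared, the replicate block, each array left out in turn, and WT and Ex4 replicates 1 left out together. Adjustment over all probe sets was added after seeing the data. The number of arrays limits the precision.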

Additional observations from a re-analysis of the deposited data

How the results depend on the processing

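Counts of mitosis genes past the threshold are given with the shares of all genes that passed higher and lower. In Ex4 against WT the count was 0 with all arrays, 24 with median centring (21.1% and 1.15%), 15 with array weights (9.93% each), 20 without WT and Ex4 replicates 1 together (14.4% and 14.7%) and 0 to 19 with 1 array left out. In LQ against WT it was 7 (4.1% and 4.17%). It became 1 with quantile normalization (1.75% and 1.5%), 31 with median centring (30.5% and 1.46%), 0 without the variance trend (0.0% each), 21 with array weights (14.1% and 15.8%), 4 after averaging the probe sets of a gene (3.07% and 4.81%), 22 without WT and Ex4 replicates 1 together (14.5% and 15.1%) and 0 to 21 with 1 array left out. The LQ count was 5 with a pseudocount of 1 (3.95% and 3.9%) and 5 with no filter (2.33% and 2.44%). In both of these HMMR and NDC80 no longer passed. Adjustment over all probe sets, chosen after seeing the data, gave 5 in LQ and 0 in Ex4. The median log2 change of members in Ex4 was 0.044 with quantile normalization, 0.66 with median centring and 0.13 to 0.28 with 1 array left out, and in LQ 0.12, 0.81 and 0.20 to 0.27. With median centring the mean level of members was 12.47, 12.31 and 12.23 on the WT arrays, 12.86, 13.34 and 13.19 on the Ex4 arrays, and 13.16, 13.26 and 13.28 on the LQ arrays. Genes taken by the rule for named genes kept their direction under every alternative run in the contrast they were taken for. Among other members, median centring turned all negative changes against WT positive, those of CCNB1, SPC25, PTTG1 and KIF20A in LQ included. For the 7 genes called in LQ, 91 of 154 values under alternatives stayed past the threshold, and for the 6 named in Ex4, 27 of 132 passed. LQ against Ex4 had 0 calls under every alternative run. Deviations of arrays that share a replicate number correlated at -0.08 to 0.19, with 4 of 9 pairs over 0.1, so the numbers were not taken to pair the arrays, although 7 of 9 arrays correlated best with their own number. With the replicate block 8 members passed in LQ, 6 of them among the 7, and 0 in Ex4. The cause of these shifts was not tested.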
